A study of Mus musculus with 2 samples.

Results

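Translation factors are the proteins that bring the ribosome to the start codon of an mRNA and then move it along the message, and 48 of their genes were followed here, through 118 probe sets, on arrays of osteoblasts given PP1 or vehicle. Membership went by gene symbol: every probe set annotated to exactly 1 gene whose symbol begins with Eif1, Eif2b, Eif2s, Eif3, Eif4a, Eif4e, Eif4g, Eif5, Eif6, Eef1 or Eef2 was taken, apart from those of Eif4ebp1 and Eef2k. These are 118 of the 34945 probe sets with a single gene, and 48 of 18193 genes. The symbols also bring in a few genes that are not translation factors themselves, namely 2 eIF4E-binding proteins (Eif4ebp2 and Eif4enif1) and 4 enzymes that methylate elongation factors (Eef1akmt1, Eef1akmt2, Eef1aknmt and Eef2kmt). Symbols alone decided membership, but the family itself was chosen by the log2 ratios of these same arrays, which were known beforehand, so everything below is a description, without a test.

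The PP1 group was 1 array of primary osteoblasts, the bone-forming cells, treated for 24 h with 2 µM PP1, an inhibitor of c-Src and related tyrosine kinases. The DMSO group was 1 array of the same kind of cells given the vehicle DMSO for 24 h. Both cultures came from the calvarial bones of 7-day-old CD1 mice, grew in medium with 10% fetal bovine serum and were starved for 24 h in medium with 0.25% bovine serum albumin before treatment. How many animals or cultures each array stands for is not given in the sources used here. With 1 array per condition there is no replicate error and no p-value, so the only yardstick is how far probe sets for a gene disagree in their log2 ratio, an SD of 0.41 over 4745 genes. That spread says nothing of variation between cultures.

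Initiation begins when eIF2, carrying the initiator tRNA and GTP, joins the small ribosomal subunit together with eIF1, eIF1A, eIF3 and eIF5. The cap-binding complex eIF4F, made of eIF4E, the scaffold eIF4G and the helicase eIF4A, brings in the mRNA. After the start codon is found eIF2 leaves with GDP and has to be recharged by its exchange factor eIF2B, the step that stress kinases block. In elongation eEF1A delivers aminoacyl-tRNA, the eEF1B subunits recharge eEF1A, and eEF2 moves the ribosome by a codon. Osteoblasts are secretory cells that make large amounts of collagen, so their output depends on this machinery.

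The PP1 signals were the dimmer ones and were raised by a factor of 1.68, which makes the means of the arrays equal once 2% of probe sets are trimmed at each end. Anything under 31.7, the median signal, was set to that floor, and each gene is represented by its brightest probe set. Over the 12111 genes above the floor on at least 1 array, the median log2 ratio of PP1 over DMSO was 0.01. Collagen and matrix markers of osteoblasts were bright, with a Col1a1 signal of 9931 on the PP1 array against 7558 on the DMSO array, and 6 of the 10 osteoblast markers searched were above the floor. Runx2, Bglap and Spp1 had no single-gene probe set here, Phex was under the floor, and the mineralization protein Ibsp was 4.22-fold lower (37.7 with PP1 against 159.1 with DMSO). The 9 macrophage markers were all above the floor, with a summed signal of 16381 with PP1 against 13786 with DMSO. That sum is mostly Lyz1 and Lyz2. Of the 9 markers 6 had ratios above 0 and 3 below, from -0.76 (C1qb) to 1.11 (Mrc1). The 5 smooth muscle and pericyte markers summed to 8184 with PP1 against 10775 with DMSO. Measured adipocyte markers summed to 3637 with PP1 against 2577 with DMSO, cartilage markers to 4194 with PP1 against 4862 with DMSO, skeletal muscle markers to 663.4 with PP1 against 615.7 with DMSO, and endothelial markers to 131.2 with PP1 against 90.2 with DMSO, with Pecam1 and Emcn under the floor. The cartilage sum is mostly Col2a1, and of the 5 cartilage markers 4 were below 0 while Sox9 was at 0.47. The skeletal muscle sum is mostly Acta1, which was lower (426.2 with PP1 against 521.0 with DMSO), while the dim muscle markers Des, Myog and Myod1 were higher. RNA quality was read from control probe sets at both ends of 3 transcripts, where the log2 of 3' over 5' signal was 0.19 with PP1 against 0.70 with DMSO for Gapdh, 1.46 with PP1 against 1.80 with DMSO for Pcx and 0.69 with PP1 against 0.55 with DMSO for Actb. The part of these differences in the values below was not tested. In bulk cultures a change in the mix of cells and a change in RNA per cell cannot be told apart.

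The initiation side of the family was mostly lower with PP1 and the core elongation factors were mostly higher, relative to the bulk of genes; with the values as deposited the elongation factors too have a median below 0. All 5 subunits of eIF2B and all 3 measured subunit genes of eIF2 had ratios below 0, with a median log2 ratio of -0.51. The 11 eIF3 genes had a median of -0.20, the 7 measured eIF4 genes sat at 0.01, and the 6 elongation factor genes had a median of 0.35, which becomes -0.40 when the arrays are left as deposited. The family as a whole stood at -0.29 over 46 measured genes, of which 32 were below 0, or 69.6% against 49.0% of all measured genes. The share of all genes below 0 differed by DMSO signal, at 44.4% under 500, 64.6% from 500 to under 2000 and 48.8% from 2000. In these bands 11 of 13, 14 of 18 and 7 of 15 members were below 0. The 2 genes not measured were Eif4a3 and Eef2kmt, whose only single-gene probe sets lay below the floor on both arrays.

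The differences were small. None of the 46 genes reached 2-fold, while 2.97% of all genes passed it upwards and 1.55% downwards. At 1.5-fold, 3 members were higher (Eef1a1, Eef1a2 and Eef1aknmt) and 5 were lower (Eif2b1, Eif2b2, Eif3b, Eif5a2 and Eef1e1). These are 6.52% and 10.9% of the measured members, beside 10.6% and 7.37% of all genes under this scaling. Another 7 genes lay between 1.4-fold and 1.5-fold lower, namely Eif1a, Eif1ax, Eif2s2, Eif2b3, Eif2b4, Eif4e2 and Eif5b, with Eif1a on the very edge of the threshold. The split of 3 higher and 5 lower depends on the scaling. With the values as deposited, which move the median of all genes by -0.71, it is 0 and 37, where 80.4% of members and 60.6% of all genes are at least 1.5-fold lower. Scaled by the medians of the arrays, which moves it by -0.17, it is 1 and 17, where 37.0% of members and 14.2% of all genes are lower. The family's share at least 1.5-fold lower thus lies near that of all genes or well above it depending on the scaling. Its share at least 1.5-fold higher lies below that of all genes in each of these scalings. That share is 0% against 1.19% as deposited and 2.17% against 6.55% by the medians. Every direction given here is therefore relative to the bulk of genes.

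**Figure D1:**
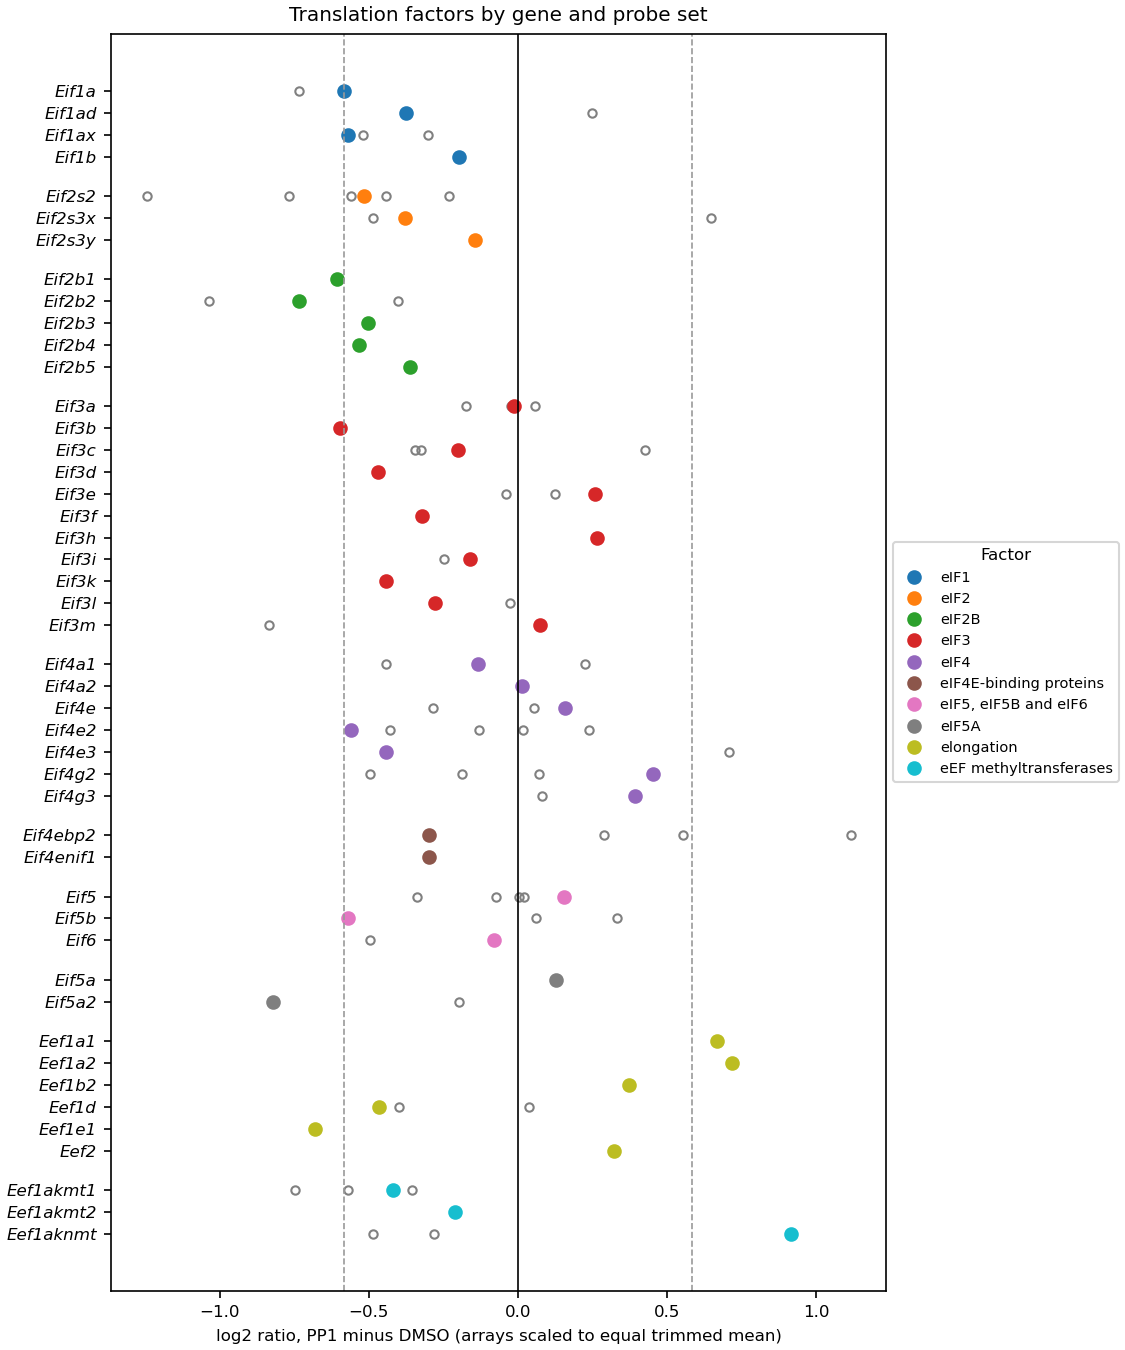
Log2 ratio of PP1 over DMSO (x axis) for each measured translation factor gene (y axis), with the brightest probe set as a filled point coloured by factor, the gene's other probe sets above the floor as open circles and dashed lines at 1.5-fold. All 5 eIF2B genes lie left of 0, between -0.74 and -0.36, while Eef1a1, Eef1a2, Eef1b2 and Eef2 lie right of it, between 0.32 and 0.72, after scaling to equal trimmed means; as deposited the elongation median is -0.40.

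The eIF2 heterotrimer carries the initiator tRNA, and its measured genes were Eif2s2 for the beta subunit and the gamma subunit pair Eif2s3x and Eif2s3y, from the X and the Y chromosome. No single-gene probe set was assigned here to Eif2s1. Eif2s2 had a signal of 2941 with PP1 against 4204 with DMSO, a log2 ratio of -0.52. All 6 of its probe sets were lower with PP1, from -1.25 to -0.23, which makes it the member with the most probe sets on 1 side. Eif2s3x had a signal of 1233 with PP1 against 1605 with DMSO (-0.38). Its second probe set gave -0.49 and the remaining, dimmer one 0.65, so that leaving out probe sets shared between transcripts puts the gene at 0.63 relative to the bulk. Eif2s3y was at 316.6 with PP1 against 350.0 with DMSO (-0.14), well within the spread between probe sets.

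The exchange factor eIF2B has 5 subunits, alpha to epsilon, encoded by Eif2b1 to Eif2b5, and all of them were lower with PP1. The beta subunit Eif2b2 was lowest, with 472.0 with PP1 against 785.8 with DMSO, or 1.66-fold lower, and its other 2 probe sets gave -1.04 and -0.40. Eif2b1, the alpha subunit, had 245.3 with PP1 against 373.5 with DMSO and was 1.52-fold lower. The delta subunit Eif2b4 had 258.0 with PP1 against 373.9 with DMSO (-0.53), and the gamma subunit Eif2b3 had 214.8 with PP1 against 304.8 with DMSO (-0.50). Eif2b5, the catalytic subunit, had the smallest difference of the 5, with 313.2 with PP1 against 402.6 with DMSO (-0.36).

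The SD between the 5 eIF2B genes was 0.14, near the 0.18 between eIF1 genes and 0.19 between eIF2 genes. It was 0.29 between eIF3 genes, 0.39 between eIF4 genes and 0.59 between elongation genes. Of the 5 eIF2B genes 4 rest on 1 probe set above the floor, and the probe sets of Eif2b2 alone ran from -1.04 to -0.40. Counting probe sets that cleared the floor with PP1 and with DMSO, all 7 of eIF2B were below 0, as were 9 of 10 for eIF2, where 46.9% of all such probe sets were. The median of eIF2 and eIF2B lay 0.31 below that of eIF3, 0.52 below that of eIF4 and 0.86 below that of the elongation factors. Each of these 8 genes was also below the median of all genes of like brightness, by a median of -0.48.

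**Figure D2:**
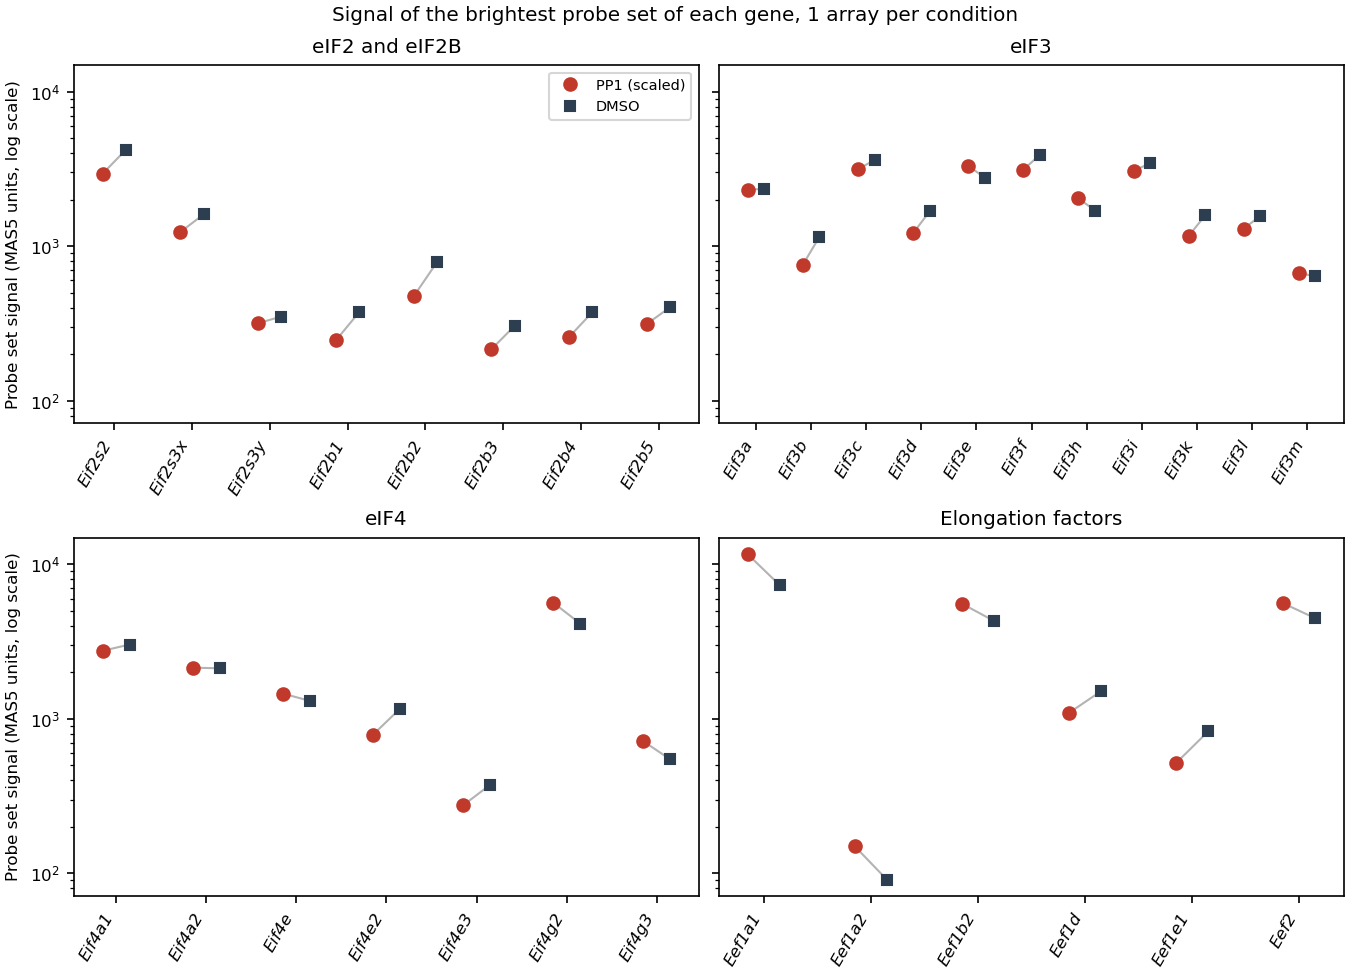
Signal of the brightest probe set of each gene (y axis, MAS5 units on a log scale) on the PP1 array after scaling (red circles) and on the DMSO array (dark squares), for the eIF2 and eIF2B, eIF3, eIF4 and elongation genes, 1 array per condition. Each eIF2 and eIF2B gene has its PP1 point below its DMSO point, from 2941 with PP1 against 4204 with DMSO for Eif2s2 to 214.8 with PP1 against 304.8 with DMSO for Eif2b3, whereas Eef1a1 has 11619 with PP1 against 7312 with DMSO, after scaling to equal trimmed means; as deposited the elongation median is -0.40.

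The 4 measured eIF1 and eIF1A genes, whose factors help find the start codon, were all below 0 and all within 1.5-fold. Eif1a and Eif1ax both encode eIF1A, and their signals were 1096 with PP1 against 1644 with DMSO (-0.58) and 1657 with PP1 against 2460 with DMSO (-0.57). Both probe sets of Eif1a and all 3 of Eif1ax were below 0. Eif1b, a paralogue of the start-codon fidelity factor eIF1, was at 760.5 with PP1 against 872.3 with DMSO (-0.20). Eif1ad, named for its eIF1A domain, was at -0.38, with a dimmer probe set at 0.25. Eif1 itself had no single-gene probe set assigned here.

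The eIF3 complex, the scaffold on the small subunit, had genes on both sides of 0. The core subunit Eif3b was lowest, with 757.3 with PP1 against 1147 with DMSO, or 1.51-fold lower, on its single probe set. Eif3d, whose protein can bind the cap, had 1211 with PP1 against 1676 with DMSO (-0.47), and Eif3k had 1163 with PP1 against 1579 with DMSO (-0.44). The others below 0 were Eif3f (-0.32), Eif3l (-0.28), Eif3c (-0.20), Eif3i (-0.16) and Eif3a (-0.01), the last being the largest core subunit. The 4 probe sets of Eif3c ran from -0.34 to 0.43. On the other side Eif3h had 2040 with PP1 against 1699 with DMSO (0.26), and Eif3e had 3314 with PP1 against 2770 with DMSO (0.26). The 3 probe sets of Eif3e ran from -0.04 to 0.26. Eif3m was at 0.07, with a dim second probe set that was under the floor with PP1 and gave -0.83. The SD between the 11 genes was 0.29, and 8 of them were below 0. Eif3g had no single-gene probe set assigned here, and Eif3j1 and Eif3j2 had only shared ones.

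Genes of the eIF4 group went both ways. The cap-binding protein Eif4e had 1456 with PP1 against 1307 with DMSO (0.16), while its relatives Eif4e2, a cap-binding protein that represses translation, and Eif4e3 were at -0.56 (787.5 with PP1 against 1161 with DMSO) and -0.44 (274.8 with PP1 against 373.4 with DMSO). The helicases Eif4a1 (-0.14) and Eif4a2 (0.01) lay at the bulk of genes. Among the scaffolds Eif4g2, which lacks the eIF4E-binding site, was highest with 5659 with PP1 against 4136 with DMSO (0.45), and Eif4g3 had 716.9 with PP1 against 546.2 with DMSO (0.39). The scaffold gene Eif4g1 had no single-gene probe set assigned here.

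For most of these genes the probe sets did not settle a direction. The 4 probe sets of Eif4g2 above the floor ran from -0.50 to 0.45, the 5 of Eif4e2 from -0.56 to 0.24, and the 2 of Eif4e3 from -0.44 to 0.71. Only 3 of the 7 eIF4 genes, Eif4a1, Eif4e and Eif4g3, kept their side of 0 relative to the bulk in every one of 9 processing alternatives that gave a value, against 5 of 5 for eIF2B and 6 of 6 for elongation. These counts are not comparable as stability, because alternatives that swap or average probe sets cannot change a gene with 1 probe set above the floor, and that holds for 4 of the 5 eIF2B genes and 5 of the 6 elongation genes but 1 of the 7 eIF4 genes. The translational repressor Eif4ebp2 was at -0.30 by its brightest probe set, but its other 3 above the floor were at 0.29, 0.55 and 1.12. Eif4enif1, a shuttling protein that binds eIF4E, was at -0.30 on 1 probe set.

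At the last steps of initiation the values were mixed. Eif5, the GTPase-activating protein of eIF2, had 2461 with PP1 against 2211 with DMSO (0.15), with 5 probe sets from -0.34 to 0.15. The subunit-joining GTPase Eif5b was at -0.57 by its brightest probe set, with 736.4 with PP1 against 1094 with DMSO, and at 0.33 and 0.06 by its others. Eif6, which keeps the large subunit from joining early, was at -0.08, and at -0.50 by its other probe set. The eIF5A pair, which helps the ribosome through difficult peptide bonds, split by paralogue. Eif5a had 5539 with PP1 against 5072 with DMSO (0.13 by both of its probe sets), and Eif5a2 had 139.7 with PP1 against 247.3 with DMSO, or 1.77-fold lower. The second probe set of Eif5a2 gave -0.20.

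After scaling to equal trimmed means, 4 of the 6 elongation genes were higher with PP1, and as deposited their median is below 0. Eef1a1, the main eEF1A gene, had a signal of 11619 with PP1 against 7312 with DMSO and was 1.59-fold higher. Its paralogue Eef1a2, known from muscle and neurons, had signals of 149.3 with PP1 against 90.8 with DMSO and was 1.64-fold higher. Of 4 measured skeletal muscle markers 3 dim ones were higher as well. Des was at 105.9 with PP1 against 39.4 with DMSO. Myod1 was at 49.4 with PP1 against 31.6 with DMSO, under the floor, and Myog at 81.8 with PP1 against 23.7 with DMSO, also under the floor. The fourth and brightest, Acta1, was lower (426.2 with PP1 against 521.0 with DMSO). The part of muscle cells in the Eef1a2 value was not tested. The translocase Eef2 had 5593 with PP1 against 4473 with DMSO (0.32), and the exchange subunit Eef1b2 had 5561 with PP1 against 4296 with DMSO (0.37). Each of these 4 rests on 1 probe set above the floor. Eef1a1 has near-identical copies in the genome, so that its probe set may also report those.

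The other 2 elongation genes were lower. The exchange subunit Eef1d had 1093 with PP1 against 1511 with DMSO (-0.47), and its other probe sets gave -0.40 and 0.04. Eef1e1, a part of the complex of tRNA synthetases rather than of eEF1 proper, had 517.6 with PP1 against 830.0 with DMSO and was 1.60-fold lower. The SD between the 6 genes was 0.59, wider than the spread between probe sets. Of the methyltransferases, Eef1akmt1 was at -0.42 with its 4 probe sets all below 0 (1 of them under the floor with PP1), and Eef1akmt2 at -0.21. For Eef1aknmt no probe set was above the floor on both arrays. Its brightest was at 59.8 with PP1 and under the floor with DMSO, at least 1.89-fold higher, and the other 2 were lower.

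The ratio differed by signal level. The 13 measured members with a DMSO signal under 500 had a median log2 ratio of -0.38, the 18 from 500 to under 2000 had -0.41, and the 15 at 2000 or more had 0.01. Over all genes those bands had medians of 0.05, -0.12 and 0.01. The bright end holds Eef1a1, Eef2, Eef1b2, Eif5a and Eif4g2, all above 0, but also Eif2s2, Eif3f and Eif3c, which were below 0. In the brightest of 10 equal signal bins the median of all genes was -0.03, and Eef1a1 stood 0.70 above it and Eif2s2 at -0.49 from it. That bin is wide, with mean signals from 1158 to 10474. A loess fit of the ratio on signal left the elongation median at 0.23 and that of eIF2 and eIF2B inside the range of -0.57 to -0.45 seen over all 9 alternatives. Signals of different probe sets are not a scale of transcript amount, so differences in level between genes are not read.

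**Figure D3:**
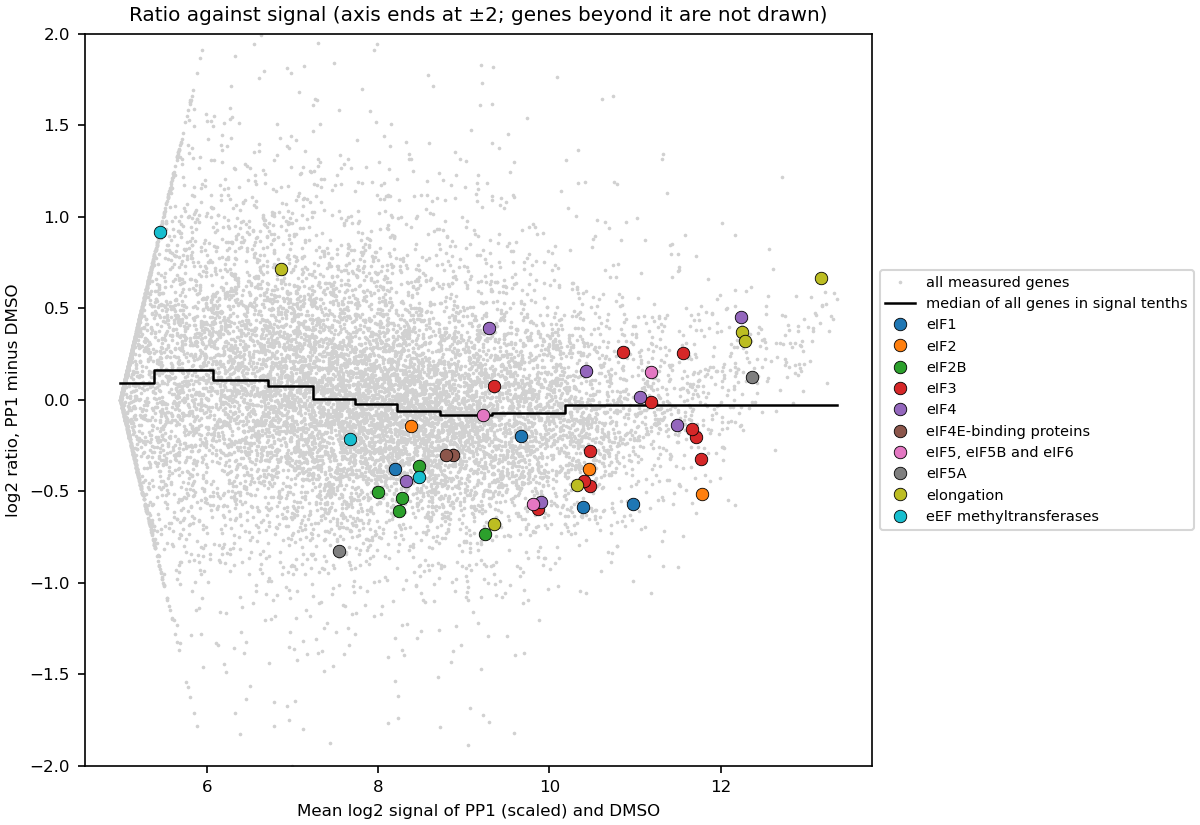
Log2 ratio of PP1 over DMSO (y axis) against the mean log2 signal of both arrays (x axis), with all 12111 measured genes in grey, translation factors coloured by group and the median of all genes in each of 10 signal bins as a black line. The eIF2B genes (green) lie below the line at middling signal, and Eef1a1, Eef1b2 and Eef2 (olive) lie above it at the bright end, after scaling to equal trimmed means; as deposited the elongation median is -0.40.

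Promoter sequences show which start-site features these genes carry. Many mRNAs of the translation apparatus begin with a C followed by a run of pyrimidines, the terminal oligopyrimidine or TOP tract, through which mTOR controls their translation. RefSeq promoters of build GRCm38.p6 were found for 38 of the 48 genes. A C followed by at least 4 pyrimidines, starting within 5 bases of the annotated start on the sense strand, was present in 10 of the 38 (26.3%), against 21.2% of 27025 genes and 48.3% of 58 ribosomal protein genes. It was found in 4 of 7 genes of eIF2 and eIF2B, 3 of 8 of eIF3, 0 of 6 of eIF4 and 1 of 5 elongation genes. The 4 longest runs are shown with the run in capitals, in windows from 10 bases before to 20 bases after the annotated start. They lie at chr9:78481705-78481734 (minus strand, Eef1a1), chr7:108934405-108934434 (plus, Eif3f), chrX:94212632-94212661 (minus, Eif2s3x) and chrY:1010585-1010614 (plus, Eif2s3y).
Eef1a1: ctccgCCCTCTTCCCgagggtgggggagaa
Eif3f: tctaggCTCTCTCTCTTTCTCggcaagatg
Eif2s3x: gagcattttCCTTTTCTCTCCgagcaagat
Eif2s3y: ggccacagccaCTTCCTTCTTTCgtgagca

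Most members were below 0 with the run and without it. Among the 10 measured genes with it 9 were below 0, all but Eef1a1, and the median log2 ratio was -0.34. They ran from -0.74 (Eif2b2) to 0.67 (Eef1a1). The 26 without it had a median of -0.20, with 16 below 0. Eef2 and Eef1b2 had no such run in this window of their annotated starts, and other starts were not searched.

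The E-box CACGTG, the letters bound by Myc and related factors and the same on both strands, was present in 10 of the 38 members within 250 bases before to 50 bases after the start (26.3%), against 8.09% of all genes. Members with it had a median log2 ratio of -0.07 and those without it -0.33. The 10 genes with an E-box ran from -0.82 (Eif5a2) to 0.92 (Eef1aknmt). A C/EBP-ATF composite, TGATGNAA on either strand, was found in 1 member, Eif2s3x, or 2.63% against 4.51% of all genes. A match describes letters and is not evidence of binding. E-boxes of 4 members with different roles are shown in capitals, those of the translocase Eef2 (chr10:81176576-81176605, plus strand), the cap-binding protein Eif4e (chr3:138527028-138527057, plus), the helicase Eif4a1 (chr11:69672595-69672624, minus) and Eif5a2 (chr3:28781123-28781152, plus).
Eef2: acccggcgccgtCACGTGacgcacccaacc
Eif4e: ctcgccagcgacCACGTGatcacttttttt
Eif4a1: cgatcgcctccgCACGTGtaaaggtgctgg
Eif5a2: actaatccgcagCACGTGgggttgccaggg

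Genes that act on these factors were described from lists of translation genes. Of the 4 kinases that phosphorylate eIF2, the heme-regulated Eif2ak1 (0.67) and the double-stranded RNA sensor Eif2ak2 (0.62) were at least 1.5-fold higher, while the endoplasmic reticulum sensor Eif2ak3 (-0.30) and the amino acid sensor Eif2ak4 (-0.51) were not. The 3 probe sets of Eif2ak1 ran from -0.35 to 0.86, and those of Eif2ak2 were all above 0. The 16 targets of the stress factor ATF4 and related genes had a median of -0.39, with 11 below 0 and 5 above. Of the 16, 7 were at least 1.5-fold lower and 1 higher, beside 7.37% and 10.6% of all genes. The higher one was Atf3 (0.67), and Ddit3 (0.42) was also above 0. Atf4 itself was at 0.44 by its brightest probe set but at -0.58 by its other. These 3, all stress-induced transcription factors, are named after their values were seen. Nupr1, a stress-induced nuclear protein, was 3.54-fold lower, with 408.9 with PP1 against 1446 with DMSO, and its other probe set gave -1.65. Mthfd2 was at -1.24 (-0.46 by its other probe set) and Slc7a5 at -1.06. In all, 3 of the 16 were at least 2-fold lower, beside 1.55% of all genes. Among the 13 genes measured in the mTOR list, 2 passed 1.5-fold upwards (Akt1s1 at 0.68 and Deptor at 0.67, both inhibitors within mTOR complexes). Another 2 passed it downwards (Rictor at -0.77 and Eif4ebp1 at -0.67), beside 10.6% of all genes upwards and 7.37% downwards. The eEF2 kinase Eef2k was at -0.35, and the hypusine enzymes Dhps and Dohh, which activate eIF5A, were at -0.46 and -0.48. Their other probe sets gave 0.28 for Eef2k, -0.61 for Dhps and 0.07 for Dohh.

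Other stages of translation were described in the same way. All 4 non-canonical initiation genes were below 0 by their brightest probe set (Mcts1 at -0.55, Eif2a at -0.32, Denr at -0.29, Eif2d at -0.18), with none at 1.5-fold. The probe sets of Eif2d ran up to 0.30 and the other one of Eif2a was at 0.01. Of 6 termination and recycling genes 5 were below 0, and the recycling ATPase Abce1 was 1.62-fold lower, with 924.6 with PP1 against 1499 with DMSO. The release factor genes Gspt1 and Etf1 were at -0.58 and -0.36. The 6 probe sets of Gspt1 ran from -0.76 to 0.07, and the 4 of Etf1 from -0.77 to -0.36. Cytosolic tRNA synthetases had a median of -0.32 over 19 genes. Of these 3 were at least 1.5-fold lower (Gars, Hars and Mars1) and 1 higher (Cars), beside 7.37% and 10.6% of all genes. The other probe set of Hars gave -0.01. The scaffolds Aimp1 (-0.50) and Aimp2 (-0.53), which hold the synthetase complex together with Eef1e1, were both below 0.

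Of 79 ribosomal protein genes 35 had no single-gene probe set here and 43 were measured. After scaling to equal trimmed means these 43 had a median log2 ratio of 0.21, with 32 above 0. Of the 43 genes 1 was at least 1.5-fold higher (Rpl27a) and 2 lower (Rpl12 and Rpl14), beside 10.6% and 7.37% of all genes. Each of these was dim beside most of the list. Rpl27a had 263.0 with PP1 against 74.2 with DMSO, Rpl12 116.6 against 193.5 and Rpl14 319.1 against 488.5. The poly(A)-binding protein Pabpc1 was at 0.31, with 7154 with PP1 against 5770 with DMSO, and -0.22 by its other probe set. Its relative Pabpc4 was at -0.63, and at -0.09 by its other probe set. The partners and kinases of the cap-binding complex had a median of -0.01 over 12 genes. With the values as deposited the directions of the ribosomal and elongation groups cannot be kept, since the median of all genes itself moves by -0.71.

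**Figure D4:**
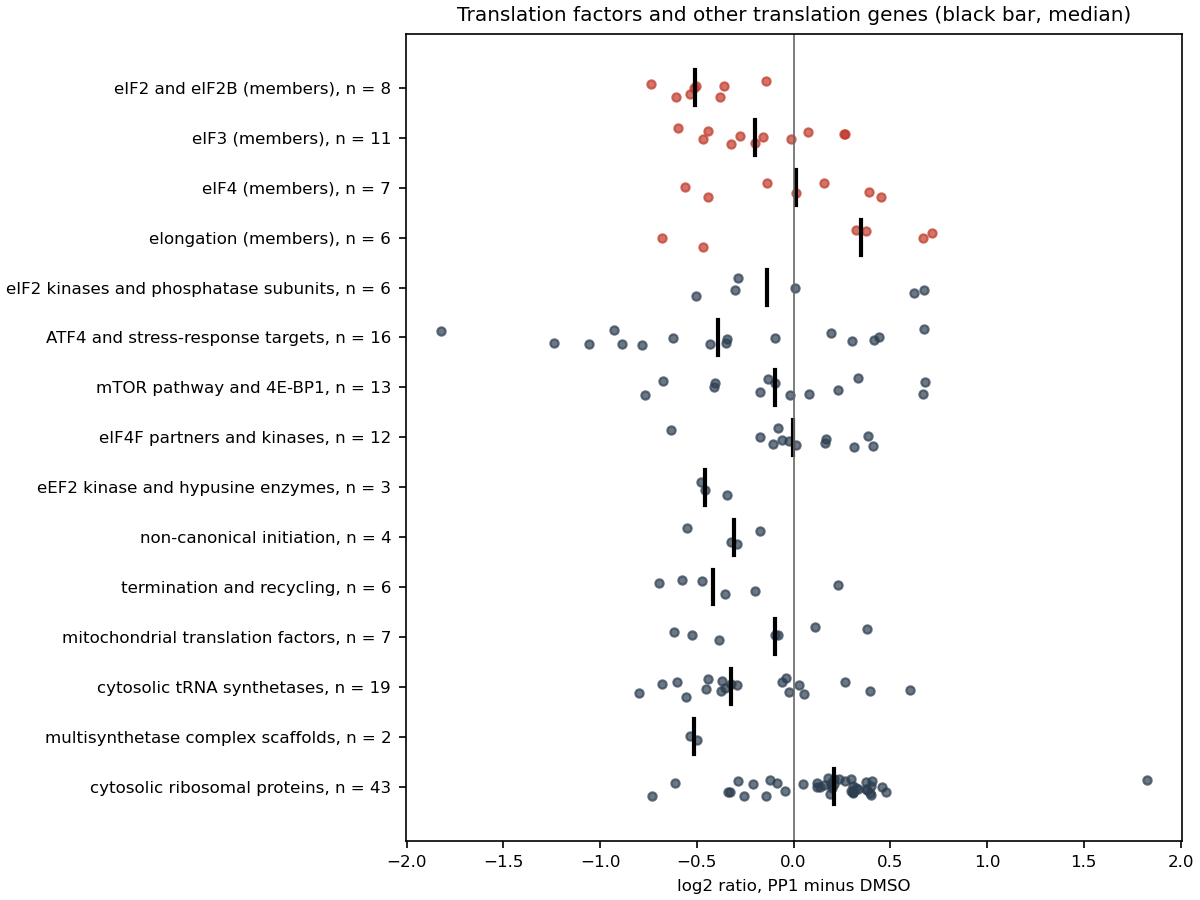
Log2 ratio of PP1 over DMSO (x axis) for the measured genes of 4 translation factor groups (red) and of 11 lists of other translation genes (dark), each point a gene and each black bar the median, with points spread vertically for legibility. Medians run from -0.52 for the 2 synthetase scaffolds and -0.51 for eIF2 and eIF2B to 0.21 for ribosomal proteins and 0.35 for elongation factors, after scaling to equal trimmed means; as deposited the elongation median is -0.40.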

How the data were processed

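The deposited values are MAS5 signals, a linear intensity per probe set on 2 arrays, 1 per condition, per the submitters' processing notes; no version or scaling target is stated in these sources. Of 45101 deposited probe sets 64 are controls. Genes were named from the platform annotation, with 1 gene for 34945 probe sets, and identifiers of 34741 of these matched a RefSeq table of GRCm38.p6, used for names. The PP1 array was multiplied by 1.68 to equalise the 2% trimmed means (94.1 with PP1 and 158.1 with DMSO), a floor of 31.7 was set, and log2 was taken. A gene is its probe set of highest mean log2 signal, and counts use 1.5-fold and 2-fold. The family and the lists were chosen with earlier results of these data known. Every measured member could be named, and up to 4 genes per list of other translation genes by size of ratio. In the ATF4 list Atf3, Atf4 and Ddit3 were named outside that order. The steps were tested on simulated data. The number of arrays limits the precision, and no test between conditions was possible. Alternatives covered scaling, loess (fraction 0.3), floors and the choice of probe set. Promoters came from RefSeq sequences of GRCm38.p6. Python 3.11.15, pandas 2.3.3, statsmodels 0.14.6 and matplotlib 3.10.9 were used.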

Additional observations from a re-analysis of the deposited data

Results flagged for a closer look

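Probe sets that match several genes entered no comparison above. For the eIF3 subunit j, shared between Eif3j1 and Eif3j2, 3 such probe sets were above the floor, and 1 of them was more than 2-fold lower, at 169.6 with PP1 against 340.6 with DMSO, a log2 ratio of -1.01. The other 2 were at -0.72 and -0.16. It is listed because a difference of this size appears in data left out of the gene-level values.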

How the results depend on the processing

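Group medians, given relative to the median of all genes, moved under each of the 9 alternatives by less than the SD between probe sets over the root of the number of genes, and ranged from -0.57 to -0.45 for eIF2 and eIF2B, -0.31 to -0.15 for eIF3, -0.03 to 0.06 for eIF4, 0.23 to 0.48 for elongation and -0.33 to -0.23 for all members. Counts did move with the scale. As deposited, 24 members (52.2%, against 23.4% of all genes) were at least 2-fold lower, and 0 were 1.5-fold higher and 37 lower (80.4%, against 60.6% of all genes). Scaled to the hybridization controls, which moves the median of all genes by -0.80, these were 28 (60.9%, against 30.6%), 0 and 37 (80.4%, against 66.9%). Scaled by the median, 1 member was 1.5-fold higher (2.17%, against 6.55%) and 17 lower (37.0%, against 14.2%). Without a floor 1 member, Eef1aknmt, was 2-fold higher, against 5% of all genes. With a floor at the 75th percentile 1 of 44 members was 1.5-fold higher (2.27%, against 6.43% of all genes). The median over probe sets put Eef1aknmt at -0.33, on the other side of 0. The sign of 34 of the 46 genes held relative to the bulk wherever an alternative gave a value, though 19 of the 46 have 1 probe set above the floor, which a swap of probe sets cannot change. Leaving out shared probe sets kept 35 members. Choosing the brightest probe set after the floor, an alternative chosen after seeing the data, left all 46 genes within the spread between probe sets. The planned membership check by symbols as annotated gave the same 118 probe sets. The cause of these changes was not tested, apart from the scale itself. No paired analysis was possible because each condition has 1 array. Signals near the floor limit what can be said of Eef1aknmt.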

Other observations

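Mitochondria translate their own few messages with a separate set of factors. Of 7 measured genes 5 were below 0, with a median log2 ratio of -0.09. The elongation factor Gfm1 was lowest, with 368.6 with PP1 against 565.4 with DMSO (-0.62, and -0.17 by its other probe set), and Tufm, which delivers tRNA, was at -0.53 and 0.09 by its 2 probe sets. The initiation factors Mtif2 (0.38) and Mtif3 (-0.39) lay on opposite sides, Mtif3 from a dim signal.

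Among the probe sets shared with other genes, the one for Eef1g and Gm29753 had a signal of 5072 with PP1 against 4226 with DMSO (0.26). The one for the exon junction helicase Eif4a3 and Gm5576 had 1104 with PP1 against 861.4 with DMSO (0.36), and that for Eif4ebp3 and Ankhd1 had 344.9 with PP1 against 255.6 with DMSO (0.43).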
